A study of Rattus norvegicus with 145 samples.

Results

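Kupffer cells and other macrophages were followed in rat liver through 10 genes that mark them, Cd68, Csf1r, Adgre1, Clec4f, Timd4, Marco, Cd163, C1qa, C1qb and C1qc. The genes are named by symbol and the choice uses no measured value, although it was made with earlier results of these data known. Of the 10, 9 have a row in the deposited tables of 17337 genes, all 9 were tested in each of the 5 data sets, and Timd4 was not analysed here. Male and female Wistar rats were given acetamide, a food contaminant that causes liver tumors in rats, by daily oral gavage, and liver RNA was sequenced in 29 groups of 5 rats. Doses are in mg per kg body weight per day (mkd), and each was compared with a vehicle control of the same sex and day. Experiment A used male Hsd:WI rats aged 9 to 10 weeks, which received 0, 30, 100, 300 or 1000 mkd for 7 days and were sampled on day 8. Experiment B used male and female Crl:WI rats aged 8 to 10 weeks, which received 0, 300, 500, 750, 1000 or 1500 mkd for 7 or 28 days and were sampled on day 8 or day 29. Experiment A thus makes 1 data set (25 rats) and experiment B makes 4 (30 rats each). Expression is given as counts per 1000000 reads on genes (CPM), with library sizes scaled by TMM within a data set, and a member counted as called when it changed at least 1.5-fold either way and its Benjamini-Hochberg adjusted p in edgeR's quasi-likelihood test was 0.05 or lower.

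Kupffer cells are the resident macrophages of the liver. They sit in the sinusoids, take up particles, dying cells and aged red cells from the blood, and depend on signaling through the CSF1 receptor. They are seeded before birth and maintain themselves, and when they are lost, monocytes from the blood can enter the niche and take on their features. CD68 is a lysosomal glycoprotein of macrophages in general, Csf1r encodes the receptor for CSF1 and IL-34, and Adgre1 encodes the surface receptor F4/80. Clec4f encodes a galactose-binding lectin that marks resident Kupffer cells in rodents, TIMD4 binds phosphatidylserine on dying cells, MARCO is a scavenger receptor for particles and bacteria, and CD163 takes up hemoglobin bound to haptoglobin. C1qa, C1qb and C1qc encode the chains of C1q, which starts the classical complement pathway and in the liver is made mainly by macrophages.

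Sequence upstream of the transcription start was available for 9 of the 10 genes (RefSeq, GRCr8), with C1qc as the exception. PU.1 (Spi1) and MAF proteins are transcription factors of the macrophage lineage, and the 250 bases before each start were searched on both strands for the core of the PU.1 site, GAGGAA, and for the core of the MAF site, TGCTGA. The promoter of Cd68 is shown since Cd68 had the largest called change, and those of C1qb and C1qa since C1qb was called in both comparisons with called members and C1qa in 1 of them. Capitals mark the matches to both motifs or to their reverse complements TTCCTC and TCAGCA, and all 3 sequences are from the minus strand, at chr10:54882442-54882691 (Cd68), chr5:154419934-154420183 (C1qa) and chr5:154407828-154408077 (C1qb).
Cd68: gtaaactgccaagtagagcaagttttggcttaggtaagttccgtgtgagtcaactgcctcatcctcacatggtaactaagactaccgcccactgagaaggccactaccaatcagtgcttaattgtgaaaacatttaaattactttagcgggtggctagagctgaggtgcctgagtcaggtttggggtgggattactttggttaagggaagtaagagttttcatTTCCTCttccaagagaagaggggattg
C1qa: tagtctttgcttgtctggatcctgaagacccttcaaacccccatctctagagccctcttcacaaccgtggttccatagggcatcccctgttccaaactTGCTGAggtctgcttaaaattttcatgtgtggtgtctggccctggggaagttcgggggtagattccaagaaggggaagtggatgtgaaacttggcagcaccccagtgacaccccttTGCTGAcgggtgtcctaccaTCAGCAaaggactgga
C1qb: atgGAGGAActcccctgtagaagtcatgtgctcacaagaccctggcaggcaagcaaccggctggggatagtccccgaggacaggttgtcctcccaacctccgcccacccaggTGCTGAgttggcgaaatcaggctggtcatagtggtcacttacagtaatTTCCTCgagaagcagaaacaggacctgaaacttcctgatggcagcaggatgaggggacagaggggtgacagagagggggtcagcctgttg

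The Cd68 promoter held 1 PU.1 core, 22 to 27 bases before the start, and no MAF motif. The C1qa promoter held 3 MAF motifs and no PU.1 core, and the C1qb promoter held 2 PU.1 cores and 1 MAF motif. The PU.1 core was present upstream of 5 of the 9 genes (Cd68, Csf1r, Adgre1, Marco and C1qb) and in 23.3% of all 33360 RefSeq promoters of the same length. The MAF motif was present upstream of 4 of 9 (Adgre1, Timd4, C1qa and C1qb) and in 15.1% of all promoters. For the C/EBP motif TTGCNNAA the count was 1 of 9 (Adgre1) against 9.2%, and for the interferon response motif GAAANNGAA it was 3 of 9 (Csf1r, Adgre1 and Timd4) against 8.12%. A match gives letters in this window and is not a measured binding site. In the order of genes on chromosome 5 (GRCr8), C1qb, C1qc and C1qa stand next to each other.

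Each rat had between 15449716 and 39986531 reads on genes (median 28262376), and TMM factors ran from 0.735 to 1.905. The highest factor belonged to replicate 2 of the 1000 mkd group of experiment A, where Alb stood at 45024 CPM. Replicate 2 of the 1500 mkd females of day 29 (factor 1.448, Alb at 46923 CPM) and replicate 3 of the 1500 mkd males of day 29 (factor 1.486, Alb at 55404 CPM, Mki67 at 243 CPM) also stood apart. Counts without these rats are given beside the results of the members at the highest dose and in the trends, and for the gene lists after their counts. In bulk RNA, fewer or more cells of a type and less or more RNA per cell cannot be told apart.

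In experiment A, macrophage genes rose at 1000 mkd, and none was called at a lower dose. Of the 9 members, 6 were called, all higher, while 21.4% of the 11323 genes tested were called in that comparison and 14% were called higher. The largest change was in Cd68. Across the 5 control rats Cd68 stood at 20.4, 39.4, 24.6, 24.7 and 18.4 CPM, and across the 1000 mkd rats at 61.5, 78.6, 60.9, 96.1 and 92.6 CPM. The groups did not overlap, and the log2 fold change was 1.61 (SE 0.24, 3.06-fold, edgeR adjusted p = 0.000141).

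Cd163, the hemoglobin scavenger, rose 2.26-fold (log2 1.18, SE 0.19, edgeR adjusted p = 0.000254). Its control values were 45.7, 64.1, 42.1, 61.4 and 50.4 CPM and its values at 1000 mkd were 106, 106, 96.2, 126 and 163 CPM, again with no overlap. C1qb rose 2.23-fold (log2 1.15, SE 0.23, edgeR adjusted p = 0.000827). The control rats held 66.0, 150.2, 78.1, 96.2 and 93.0 CPM of C1qb and the treated rats 163, 170.2, 179.7, 263 and 299.7 CPM. Cd68, Cd163 and C1qb were the 3 members in which all treated rats lay above all controls, and 9.01% of all genes tested had that pattern.

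The other called members overlapped with the controls. Csf1r, the CSF1 receptor, rose 1.90-fold (log2 0.92, SE 0.23, edgeR adjusted p = 0.00431), from 53.8, 110.7, 65.6, 68.8 and 73.9 CPM to 133, 106, 113, 151 and 204 CPM, and 4 of 5 treated rats lay above every control. C1qc rose 1.76-fold (log2 0.81, SE 0.27, edgeR adjusted p = 0.0266) and C1qa 1.68-fold (log2 0.75, SE 0.27, edgeR adjusted p = 0.0408), each with 2 of 5 rats above every control. The C1qa and C1qc calls were lost when control replicate 1, 3 or 4 or 1000 mkd replicate 4 or 5 was left out, and they were also lost when the fit held only the control and 1000 mkd groups (adjusted p = 0.0867 and 0.0609). Without replicate 2 of the 1000 mkd group, the rat with the highest TMM factor, 7 members were called.

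For the remaining members the calls were not met. Adgre1 (F4/80) was 1.496-fold higher at 1000 mkd with an adjusted p of 0.042 in edgeR, just below the fold limit. Clec4f, the lectin of resident Kupffer cells, stood at 126, 490.4, 207, 232 and 397 CPM in the controls and at 445, 310.6, 427, 481 and 528 CPM at 1000 mkd. Its log2 fold change was 0.59 with a 95% interval from -0.08 to 1.27 (edgeR adjusted p = 0.174). The controls varied by 51.3% (coefficient of variation), and 1 of 5 treated rats lay above every control. Marco ranged from 34.9 to 150.2 CPM in controls and from 64.1 to 245 CPM at 1000 mkd, with a log2 fold change of 0.33 (95% interval -0.47 to 1.14, edgeR adjusted p = 0.549).

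At 30, 100 and 300 mkd of experiment A, 0 of 9 members were called, and 0% of all genes were called at each of these doses. All 9 members were lower than control at 30 mkd, by log2 values between -0.69 (Marco) and -0.19 (Adgre1), and Cd163 alone had an unadjusted p under 0.05 in edgeR. At 100 and 300 mkd the log2 fold changes lay between -0.39 and 0.19. As a linear term in dose, 8 of 9 members rose, with edgeR adjusted p between 2.11e-07 and 0.0161, and 45.9% of all genes passed that test in either direction. The slopes ran from 1.74 (Cd68) and 1.37 (Cd163) to 0.66 (Adgre1) in log2 units per 1000 mkd, and the slope of Marco was 0.61 (95% interval -0.05 to 1.27, adjusted p = 0.121). Without replicate 2 of the 1000 mkd group the trend was called for 8 members as well, and without the whole 1000 mkd group for 0.

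**Figure D1:**
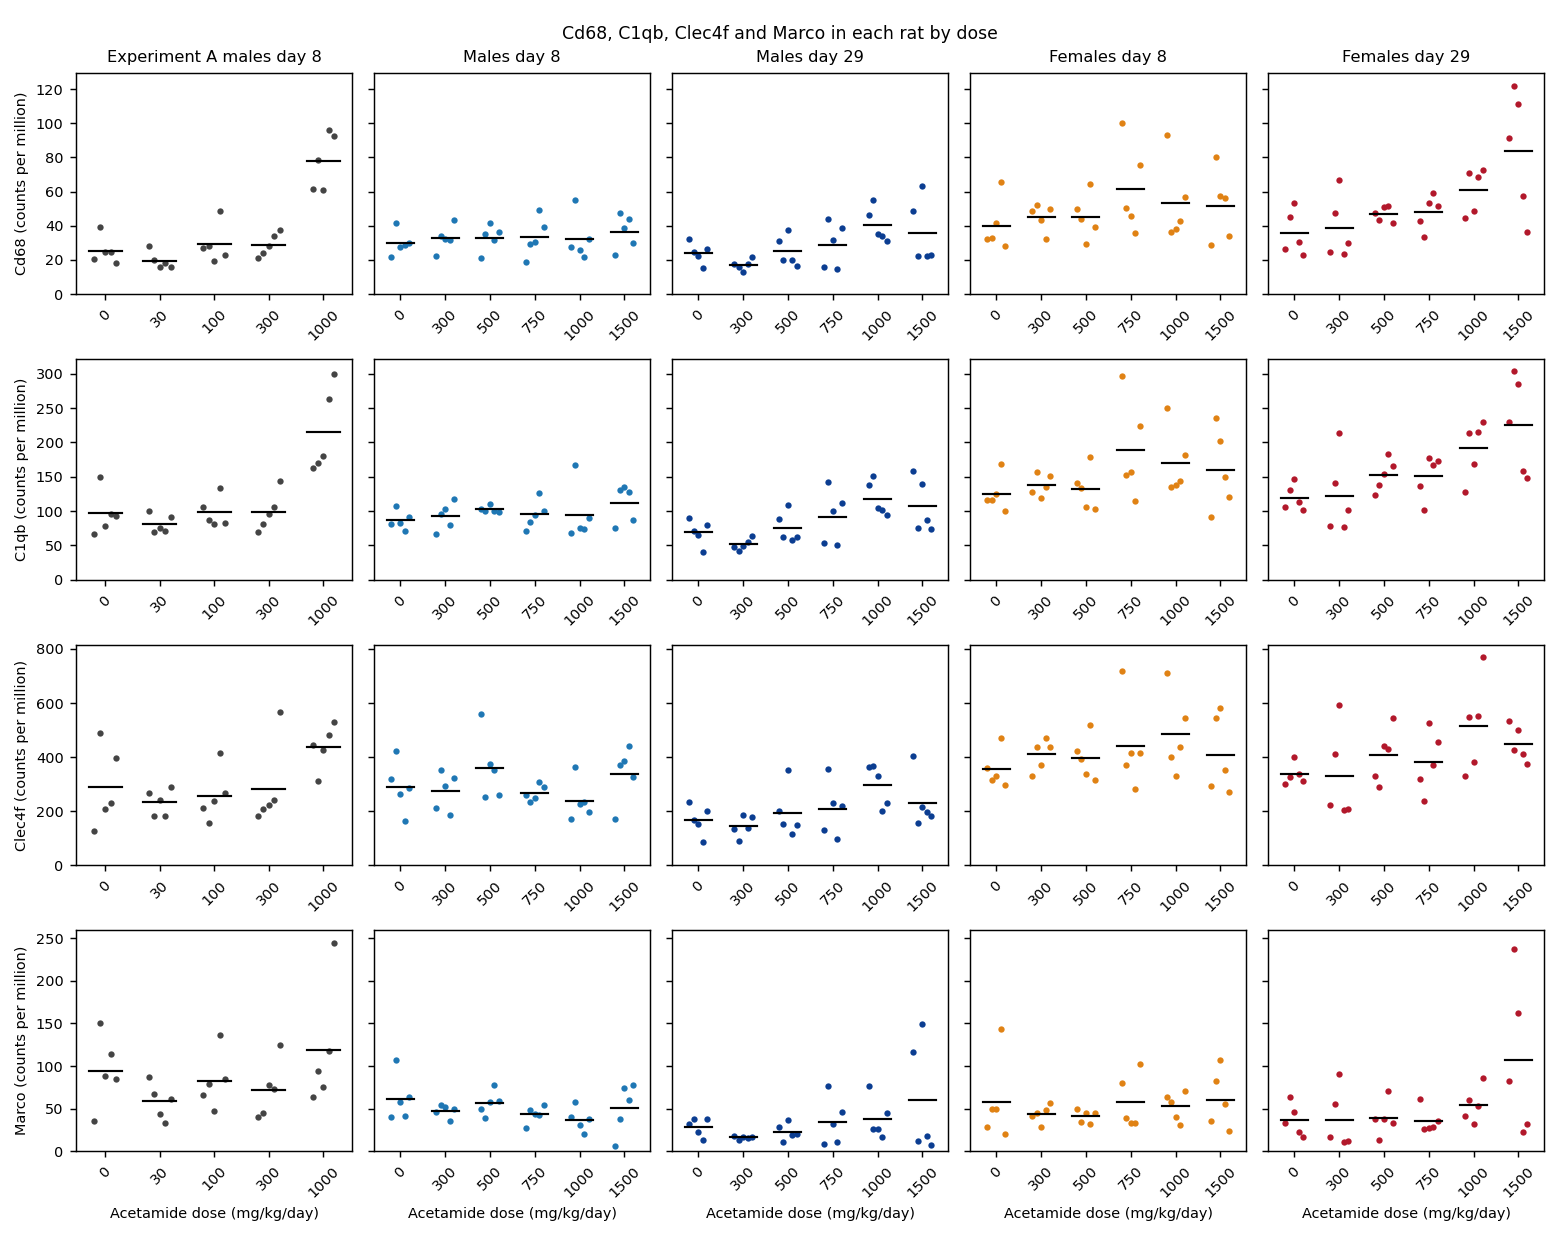
Cd68, C1qb, Clec4f and Marco in every rat (CPM, vertical axes) by acetamide dose (mg/kg/day, horizontal axes) in the 5 data sets, with a bar at each group mean. Cd68 and C1qb at 1000 mkd in experiment A lie above all controls, Clec4f overlaps with its controls, and Marco at 1500 mkd on day 29 is spread from 22.6 to 238 CPM in females and from 7.27 to 150 CPM in males.

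In males of experiment B on day 8, members did not move past the thresholds at any dose. The counts were 0 of 9 at 300, 500, 750, 1000 and 1500 mkd, where 0%, 0%, 0%, 0% and 0.177% of the 11304 genes tested were called, and 0 members had an unadjusted p under 0.05 in edgeR at any of these doses. At 1500 mkd the log2 fold changes ran from -0.27 (Marco, 95% interval -1.05 to 0.50) to 0.45 (Cd163, -0.06 to 0.95), and the lowest adjusted p was 0.471. No member had all treated rats above all controls, against 1.45% of all genes. Cd68 was 29.9 ± 7.18 CPM in controls and 36.6 ± 10.1 CPM at 1500 mkd (SD, n = 5), a log2 difference of 0.29 (95% interval -0.22 to 0.81). The dose trend was called for 0 of 9 members and for 2.52% of all genes, with slopes between -0.23 (Marco) and 0.26 (Cd163) per 1000 mkd and a lowest adjusted p of 0.323.

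In females of experiment B on day 8, no dose gave a called member either. At 300, 500, 750, 1000 and 1500 mkd the count was 0 of 9 each time, beside 0.0087%, 0.0174%, 0.0174%, 1.37% and 0.705% of the 11497 genes tested. The lowest adjusted p over these doses was 0.249, for C1qb at 750 mkd (log2 0.59, 95% interval 0.10 to 1.08), where Cd68, C1qa and C1qb had unadjusted p under 0.05 in edgeR. At 1500 mkd the log2 fold changes lay between -0.07 (Adgre1) and 0.36 (Cd68, 95% interval -0.25 to 0.98). No member had all 1500 mkd rats above all controls (1.65% of all genes). In the trend 0 of 9 members and 5.44% of all genes were called, and the slopes lay between -0.03 and 0.30.

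In males of day 29, all 9 members were higher than control at 1000 and at 1500 mkd, and none was called. The counts of 0 of 9 at 300, 500, 750, 1000 and 1500 mkd stand beside 0%, 0%, 0.78%, 2.76% and 4.91% of the 11279 genes tested. Unadjusted p in edgeR were under 0.05 for 5 members at 1000 mkd and for 2 (C1qb and C1qc) at 1500 mkd, and the lowest adjusted p were 0.0762 and 0.136. C1qa at 1000 mkd had a log2 fold change of 0.79 (SE 0.27, 95% interval 0.23 to 1.34), with 93.8 ± 25.4 CPM in controls against 162 ± 36.7 CPM (SD, n = 5) and 4 of 5 rats above every control. With only the control and 1000 mkd groups in the fit, 4 members (Cd68, C1qa, C1qb and C1qc) were called, and with DESeq2 or with the replicate block 1 was (C1qa). The shares of all genes called in these fits were not computed. In every other dose comparison with 0 called members, the Wald test of DESeq2 called 0 as well.

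The rats at 1500 mkd were split in their Cd68. The 5 males of day 29 held 48.7, 22.1, 63.5, 22.1 and 22.9 CPM against 32.1, 24.8, 22.2, 15.4 and 26.6 CPM in controls, and 2 of 5 lay above every control. Replicates 1 and 3 held the highest values of the group for all 9 members, although for Clec4f replicate 3 (215 CPM) lay within the range of the controls (up to 233 CPM). Marco showed the widest spread, with 116, 11.7, 150, 17.9 and 7.27 CPM at 1500 mkd, and 2 of these rats lay below every control. Replicate 3 was also the rat with Mki67 at 243 CPM, while the other 4 rats of its group were between 3.07 and 14.1 CPM. No member had all treated rats above all controls (2.86% of all genes). At 300 mkd all 9 members were lower than control, by log2 values between -0.81 and -0.21 (lowest edgeR adjusted p 0.865).

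The dose trend in males of day 29 was called for 5 of 9 members, all upward, and for 24.5% of all genes in either direction. The slopes were 0.65 for C1qb (SE 0.17, edgeR adjusted p = 0.00918), 0.60 for C1qc (adjusted p = 0.016), 0.56 for C1qa and 0.62 for Cd68 (adjusted p = 0.0221 for each), and 0.94 for Marco (adjusted p = 0.0446). Csf1r (0.48), Cd163 (0.59) and Clec4f (0.52) had adjusted p between 0.0566 and 0.0603, and Adgre1 (0.33) of 0.229. The count was 2 without replicate 1 of the 1500 mkd group and 3 without its replicate 3 or without control replicate 4. It was 8 without its replicate 2 or 4, which held the lowest Cd68 of the group. Without replicate 3, the slopes of Cd68 and Marco were 0.46 and 0.53, and neither was called.

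In females of day 29, Cd68, Cd163 and C1qb rose at 1500 mkd. The called members numbered 0, 0, 0, 0 and 3 of 9 at 300, 500, 750, 1000 and 1500 mkd, while 0%, 0.0349%, 0.183%, 1.59% and 13.1% of the 11451 genes tested were called, with 9.55% higher at 1500 mkd. Cd68 stood at 26.1, 44.9, 53.2, 30.6 and 23.0 CPM in the controls and at 91.1, 122, 111, 57.6 and 36.4 CPM at 1500 mkd. Of the treated rats 4 lay above every control and replicate 5 lay within the control range, and the log2 fold change was 1.23 (SE 0.29, 2.35-fold, edgeR adjusted p = 0.00437). The Cd68 call was lost when the fit held only the control and 1500 mkd groups (adjusted p = 0.0538).

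C1qb was separated in full. Control rats held 106, 131, 146, 114 and 102 CPM and rats at 1500 mkd 230.2, 303, 286, 159 and 149 CPM, which gave a log2 fold change of 0.91 (SE 0.24, 1.89-fold, edgeR adjusted p = 0.00906). Cd163 stood at 52.0, 80.7, 75.3, 53.1 and 36.9 CPM against 109, 148, 168, 75.1 and 63.2 CPM (log2 0.92, SE 0.30, 1.89-fold, edgeR adjusted p = 0.0311), with 3 of 5 rats above every control. Its call was lost without control replicate 1, 4 or 5, without 1500 mkd replicate 2 or 3, and in the fit of the control and 1500 mkd groups alone (adjusted p = 0.0824). Without replicate 2, the rat with the lowest Alb of this group, 2 members were called, while 5.57% of all genes were called higher and 1.42% lower. Without replicate 5, the rat with the lowest Cd68, 6 were called. Leaving out the treated rat with the lowest value of a member raises the group mean of that member by itself. The share of all genes called in that fit is not given here, so nothing is drawn from the 6.

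The other members at 1500 mkd were higher without a call. Marco had the largest log2 fold change of all members, 1.57, with an SE of 0.58 and an edgeR adjusted p of 0.0584. Its values were 32.5, 63.6, 46.4, 22.1 and 16.6 CPM in controls and 82.8, 238, 162, 22.6 and 31.6 CPM at 1500 mkd, so that 3 rats were high and 2 were within the controls. Csf1r (log2 0.74), C1qc (0.66), Adgre1 (0.52), C1qa (0.49) and Clec4f (0.42, 95% interval -0.12 to 0.96) had adjusted p of 0.0714, 0.0719, 0.177, 0.146 and 0.27. For C1qa all 5 treated rats (208 to 303 CPM) lay above all 5 controls (171 to 198 CPM), so C1qa and C1qb were the 2 members with no overlap, against 3.51% of all genes.

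At 1000 mkd, females of day 29 had all 9 members higher, 7 with an unadjusted p under 0.05 in edgeR, and a lowest adjusted p of 0.108 (Cd163, log2 0.87, 95% interval 0.25 to 1.48). The dose trend was called for 7 of 9 members, all upward, and for 27.3% of all genes in either direction. The slopes were 0.84 for Cd68 (edgeR adjusted p = 0.000211), 0.65 for C1qb, 0.64 for Cd163, 0.51 for C1qc, 1.04 for Marco, 0.42 for C1qa and 0.48 for Csf1r. Clec4f and Adgre1 had slopes of 0.38 each and adjusted p of 0.0713 and 0.0725. The count was 5 without replicate 2 of the 1500 mkd group, and without the whole 1500 mkd group it was 2 (Cd68 and C1qb). It was 9 without replicate 5, the treated rat with the lowest Cd68, whose removal raises the Cd68 mean by itself.

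**Figure D2:**
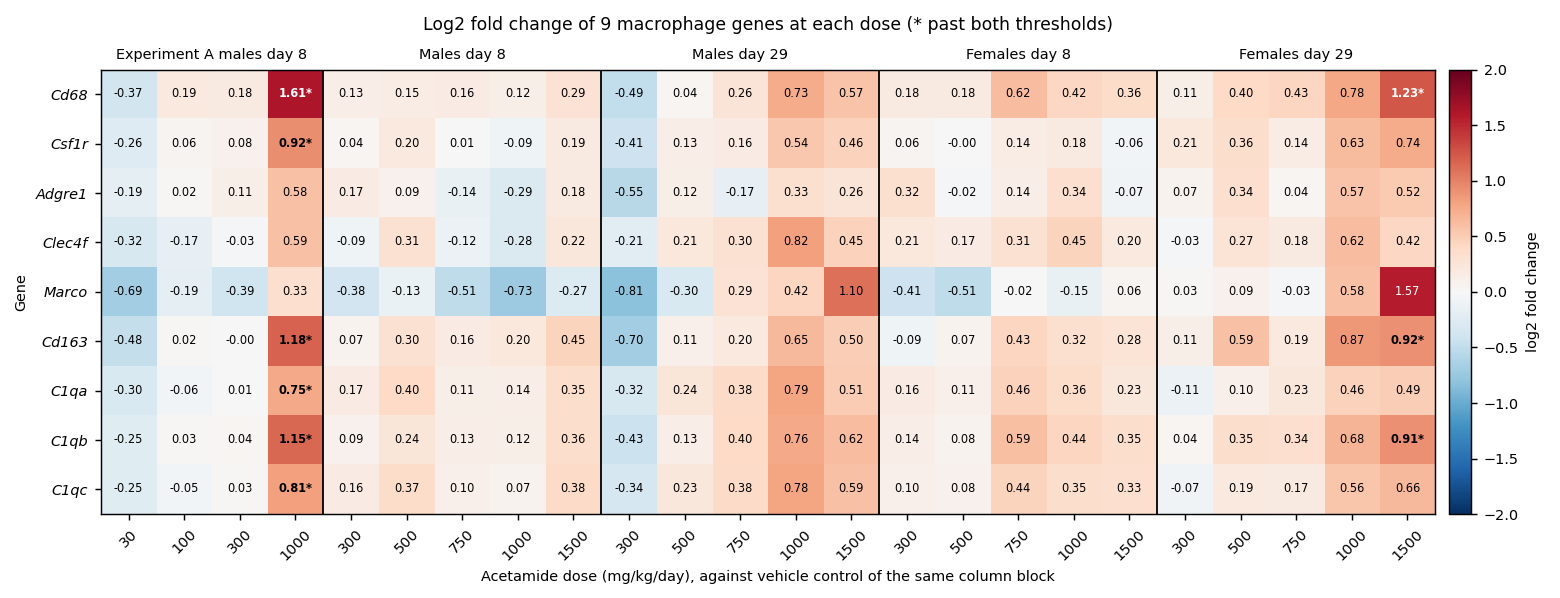
Log2 fold change (color) of each of the 9 genes (vertical axis) at each dose (mg/kg/day, horizontal axis) against the vehicle control of the same data set, with an asterisk where both thresholds were met. The asterisks stand at 1000 mkd in experiment A (6 genes) and at 1500 mkd in females of day 29 (3 genes), and in no other column.

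**Figure D3:**
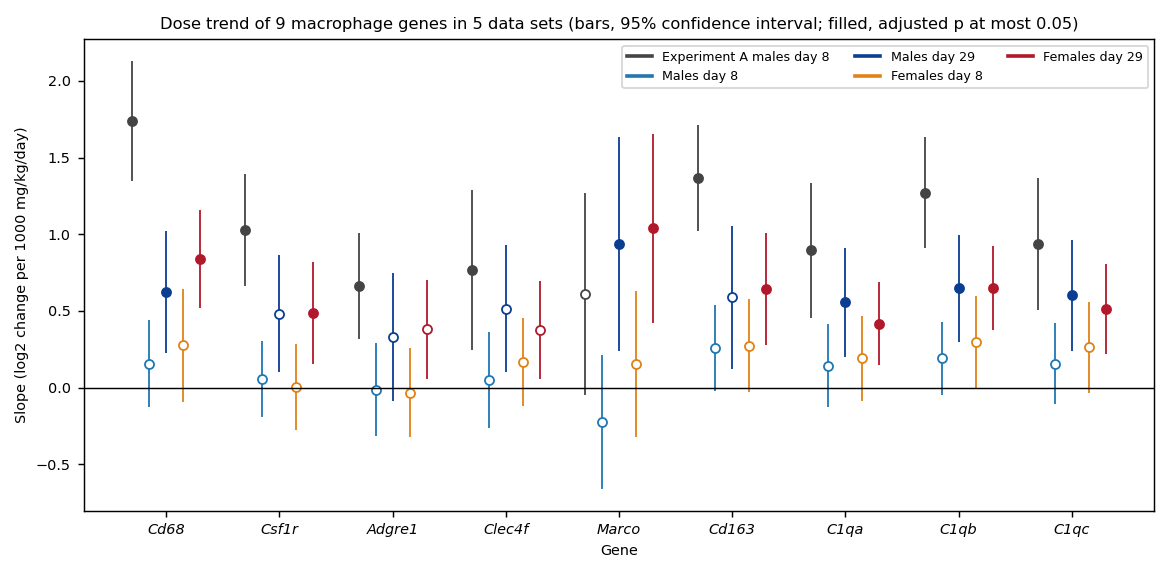
Slope of each gene on dose (log2 change per 1000 mg/kg/day, vertical axis) in the 5 data sets, with 95% confidence intervals as bars and filled points at an adjusted p of at most 0.05. For every gene but Marco the slope is highest in experiment A (Cd68 at 1.74), Marco is highest in females of day 29 (1.04), and all intervals of the day 8 data sets of experiment B include 0.

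The response to the same dose differed between the experiments. At 1000 mkd in males of day 8, the log2 fold change of Cd68 was 1.61 in experiment A and 0.12 in experiment B, a difference of 1.501 (SE 0.42, 95% interval 0.67 to 2.33, edgeR adjusted p = 0.0163). For C1qb the difference was 1.04 (SE 0.35, 95% interval 0.35 to 1.73, adjusted p = 0.0453). These 2 of 9 members passed, and 7.85% of the 11890 genes tested did. All 9 differences were positive, from 0.62 (C1qa) to 1.501 (Cd68), and 7 had an unadjusted p under 0.05 in edgeR. Rat stock, supplier and experiment changed together and cannot be told apart. When the fit held the 4 groups of this contrast alone, 0 members passed. Without replicate 2 of the 1000 mkd group of experiment A, 1 member passed, with Cd68 at 1.49 (adjusted p = 0.05) and C1qb at 1.11 (adjusted p = 0.0741).

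Sex and duration gave no difference of response that passed. Females minus males at 1500 mkd ranged from -0.24 to 0.34 (log2) on day 8, with 0 of 9 members and 0% of all genes called. On day 29 it ranged from -0.01 to 0.69, again with 0 of 9 called, beside 0.597% of all genes, and for Cd68 it was 0.69 (95% interval -0.13 to 1.52, edgeR adjusted p = 0.391). Day 29 minus day 8 at 1500 mkd ranged from 0.03 to 1.35 in males (0 of 9 members and 0% of genes) and from 0.21 to 1.51 in females (0 of 9 members and 0.0168% of genes). In females Cd68 (0.87, 95% interval 0.05 to 1.69), Csf1r (0.79, 0.04 to 1.54) and Marco (1.51, 0.05 to 2.96) had unadjusted p under 0.05 in edgeR, with adjusted p of 0.628 to 0.629. The intervals of these 3 genes reach past 1 log2 unit.

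Levels in untreated liver were set on a single scale over all rats of the 5 data sets. Each control group belongs to its own data set. Sex, day or experiment therefore cannot be told apart from other differences between data sets in these control comparisons. Females of day 29 had more Clec4f than males of day 29, 325 ± 33.5 against 175 ± 55.9 CPM (SD, n = 5), a log2 difference of 0.89 (SE 0.29, edgeR adjusted p = 0.0225). The same was seen for C1qa (178 ± 13.1 against 97.3 ± 25.9 CPM, log2 0.87, adjusted p = 0.00934), C1qc (154 ± 7.77 against 86.9 ± 23.6 CPM, log2 0.82, adjusted p = 0.0199) and C1qb (116 ± 16.6 against 72.1 ± 18.8 CPM, log2 0.68, adjusted p = 0.0393). These 4 of 9 members were called, and 12% of all genes were. Cd68 (log2 0.45, 95% interval -0.14 to 1.04), Csf1r, Adgre1, Cd163 and Marco were not.

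None of the other control comparisons called a member. Females minus males on day 8 gave 0 of 9 (7.97% of all genes), with a lowest adjusted p of 0.304. Day 29 minus day 8 gave 0 of 9 in males (0.00841% of genes), although all 9 members were lower on day 29, with log2 differences from -1.11 (Marco) to -0.29 (Cd68), 4 unadjusted p under 0.05 and a lowest adjusted p of 0.373 in edgeR. In females that comparison gave 0 of 9 as well (1.1% of genes), and experiment A minus experiment B gave 0 of 9 (1.61% of genes). The control males of day 29 were the lowest control group for all 9 genes. They carry the exposure label of the other experiment, and their strain, title and the study's design place them in experiment B.

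Across the 29 groups on that scale, Cd68 was highest at 1000 mkd of experiment A (84.8 ± 18.8 CPM, SD, n = 5) and at 1500 mkd in females of day 29 (81.1 ± 35.4 CPM), and these 2 groups overlapped. Next came females of day 29 at 1000 mkd (59.1 ± 13.2 CPM) and females of day 8 at 750 mkd (56.2 ± 23.6 CPM), again within each other's spread. The lowest groups were males of day 29 at 300 mkd (18.0 ± 2.97 CPM) and males of experiment A at 30 mkd (21.3 ± 5.57 CPM). The same pair of groups led the order for Csf1r, Marco, Cd163, C1qa, C1qb and C1qc. Clec4f was highest in females of day 29 at 1000 mkd (501 ± 173 CPM) and Adgre1 in females of day 8 at 1000 mkd (51.6 ± 8.30 CPM). Males of day 29 at 300 mkd were last for all 9 genes.

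The members varied together from rat to rat. With each rat's log2 CPM taken as a deviation from its group mean, the 36 pairs of members had Spearman correlations between 0.58 and 0.97 over the rats of all 29 groups, with a median of 0.79. The values of a rat come from a single library and share its scaling. C1qa and C1qc were the closest pair (0.97), followed by C1qb and C1qc (0.92), Clec4f and C1qc (0.91), Csf1r and Adgre1 (0.90), Clec4f and C1qa (0.90) and Cd68 and C1qb (0.90). Cd68 was nearer to Cd163 (0.87) than to Clec4f (0.64), and Marco had the lowest values, down to 0.58 with C1qa. Within single data sets the median over pairs was 0.72 in experiment A, 0.67 in males and 0.72 in females of day 8, and 0.88 in males and 0.83 in females of day 29.

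**Figure D4:**
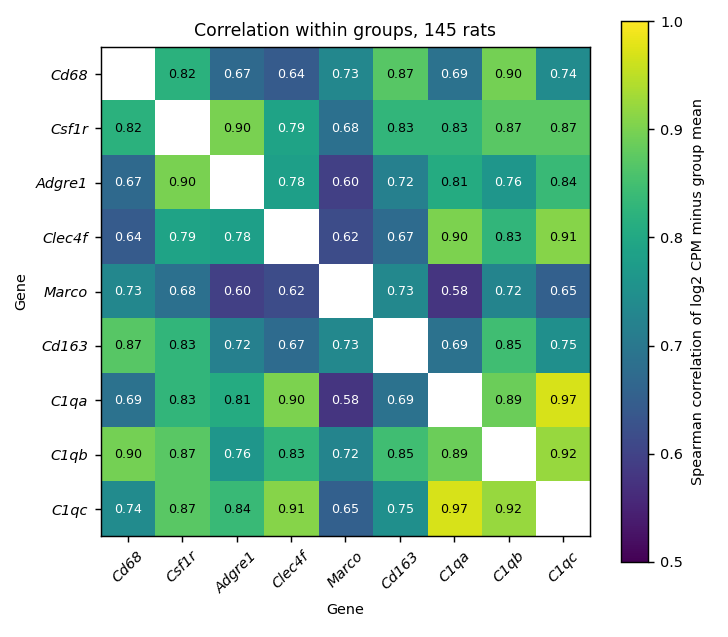
Spearman correlation (color, no unit) between members (both axes) of log2 CPM minus the group mean over all rats. C1qa and C1qc are at 0.97, and Marco holds the lowest values (0.58 with C1qa).

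Among 10118 genes with a mean of at least 1 CPM, and with the members themselves left out, the genes nearest to each member by the same measure over the same rats were, for Cd68, Axl (0.91), Vav1 (0.91) and Pld4 (0.90). AXL is a receptor for dying cells, and VAV1 is a signaling protein of blood cells. Axl was also first for Cd163 (0.90), ahead of Vav1 (0.87) and Cd4 (0.87). Csf1r was nearest to Nckap1l (0.93), a regulator of actin in blood cells, and Adgre1 to Anxa3 (0.88) and Nckap1l (0.87). Outside the members, Clec4f was nearest to Cfp (0.89), which encodes the complement protein properdin, and to the complement receptor gene Vsig4 (0.88). Marco was nearest to Itgam (0.75) and Itgb2 (0.74), the chains of the integrin CD11b/CD18. The nearest genes that are no members were Cfp for C1qa (0.93), Fcer1g for C1qb (0.91) and Tyrobp for C1qc (0.92), and the latter pair encode adaptors of immune receptors.

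Genes of further lists were counted at the highest dose of each data set, and their changes are given as log2 fold changes. These lists are not limited to macrophage genes. In controls of experiment A the lists of lipid-associated macrophages, complement and activation summed to 19540 to 26419, 14504 to 22586 and 1762 to 2904 CPM. Cd68, Csf1r and Adgre1 together stood at 90.9 to 187 CPM there. Genes such as F10, Arg1, Gas6 and Masp1 are not particular to macrophages, and their calls are not read as changes of these cells. For comparison, the shares of all genes called higher and lower were 14% and 7.45% at 1000 mkd in experiment A, 9.55% and 3.54% in females of day 29, 3.16% and 1.76% in males of day 29, 0.522% and 0.183% in females of day 8, and 0.142% and 0.0354% in males of day 8. Of 15 other Kupffer cell genes, 11 rose and 0 fell at 1000 mkd in experiment A, with a list median of 0.88 (log2) against 0.00 for all genes. Siglec1, a sialic acid receptor of macrophages, rose by 2.31, Slc11a1, a metal transporter of phagosomes, by 1.76 and Spic, a regulator of iron-handling macrophages, by 1.72. In females of day 29 at 1500 mkd, 7 of these 15 rose and 0 fell (median 0.70), led by Siglec1 (1.38), Spic (1.27) and Slc11a1 (1.26). In the other 3 data sets 0 of 15 were called.

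In the CSF1 receptor pathway with its macrophage regulators, 7 of 14 rose and 0 fell in experiment A (median 0.68). Spi1, which encodes PU.1, rose by 1.68 (6.18 to 19.7 CPM), Csf2rb by 1.66 and the ligand Csf1 by 1.12. Females of day 29 had 4 of 14 higher (median 0.29), led by Csf2rb (1.58), Spi1 (1.25) and Tyrobp (0.97), and the other data sets had 0. Of 9 genes of monocytes and recruited macrophages, 6 rose in experiment A, led by Fcnb (2.16), Plac8 (1.83) and Cx3cr1 (1.77), while F10, the gene of coagulation factor X, fell by 0.93. In females of day 29 Cx3cr1 (1.54) and Ly86 (1.36) rose and 0 of 9 fell. Ccr2 was not analysed here.

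Genes of lipid-associated macrophages held the largest changes of the macrophage lists. Gpnmb, a lysosomal membrane protein, rose by 2.89 in experiment A (26.4 ± 7.78 to 196 ± 90.0 CPM, SD, n = 5), by 2.87 in females of day 29 (21.3 ± 4.37 to 156 ± 94.2 CPM) and by 1.502 in males of day 29 (16.8 ± 7.00 to 47.5 ± 32.9 CPM). Lgals3, which encodes galectin-3, rose by 2.02, 1.92 and 1.08. In all, 4 of 12 genes of this list rose in experiment A, 3 of 11 in females and 2 of 11 in males of day 29, and 0 fell in these data sets. In males of day 29 both calls rested on replicate 3 of the 1500 mkd group, without which 0 of 11 were called.

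Genes of macrophage activation rose in 6 of 10 cases in experiment A (Ccl4 1.98, Ccl3 1.81, Tlr4 1.67) with 1 lower (Arg1, also an enzyme of the urea cycle, by 0.60), and in 4 of 10 in females of day 29 (Cd86 0.95, Tlr2 0.89, Tlr4 0.87) with 0 lower. Of 13 receptors and partners in the uptake of apoptotic cells, 4 rose and 1 fell in experiment A (Elmo1 1.47, Axl 1.39, Msr1 1.23). In females of day 29 3 rose and 2 fell, with Cd36 at -1.30, Elmo1 at 1.30 and Gas6, a bridging ligand made by several liver cells, at -0.96. Gas6 fell by 1.17 on the log2 scale in females of day 8, and Mfge8 rose by 0.67 in males of day 29. MHC class II genes rose in 4 of 6 cases in experiment A, where 14% of all genes did, and 1 of 6 in females of day 29, where 9.55% did. Ciita, their master regulator, was at 0.94 and 0.90, and 0 were lower in either. Other genes of the classical complement start and its control were listed together with Masp1 and Masp2 of the lectin pathway. Of this list, 2 of 12 rose in experiment A (C4b 1.88, Cd93 1.12) and 2 fell (among them Masp1 by 0.85), counts near the 14% and 7.45% of all genes. In males of day 29 Masp1 fell by 0.60, and in females of day 29 0 of 12 were called.

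Many of these counts were smaller without the rats that stood apart. Without replicate 2 of the 1000 mkd group of experiment A, 9 of 15 other Kupffer cell genes rose, 6 of 14 of the CSF1 receptor pathway, 5 of 9 of monocytes and recruited macrophages, 2 of 12 of lipid-associated macrophages, 5 of 10 of macrophage activation and 5 of 6 of MHC class II, while 10.5% of all genes did. In females of day 29 without replicate 2 of the 1500 mkd group, 3 of 15 other Kupffer cell genes rose, 1 of 14 of the CSF1 receptor pathway, 1 of 9 of monocytes, 3 of 11 of lipid-associated macrophages, 0 of 10 of macrophage activation and 0 of 6 of MHC class II, beside 5.57% of all genes. Receptors and partners in the uptake of apoptotic cells then had 4 of 13 higher and 0 lower in experiment A and 2 higher and 1 lower in females of day 29. The complement list had 2 of 12 higher and 1 lower in experiment A and 0 called in females. Without replicate 3 of the 1500 mkd males of day 29, 0 genes of the macrophage lists rose and 1 gene of the CSF1 receptor pathway fell. In that fit 1.12% of all genes were called higher and 4.95% lower.

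**Figure D5:**
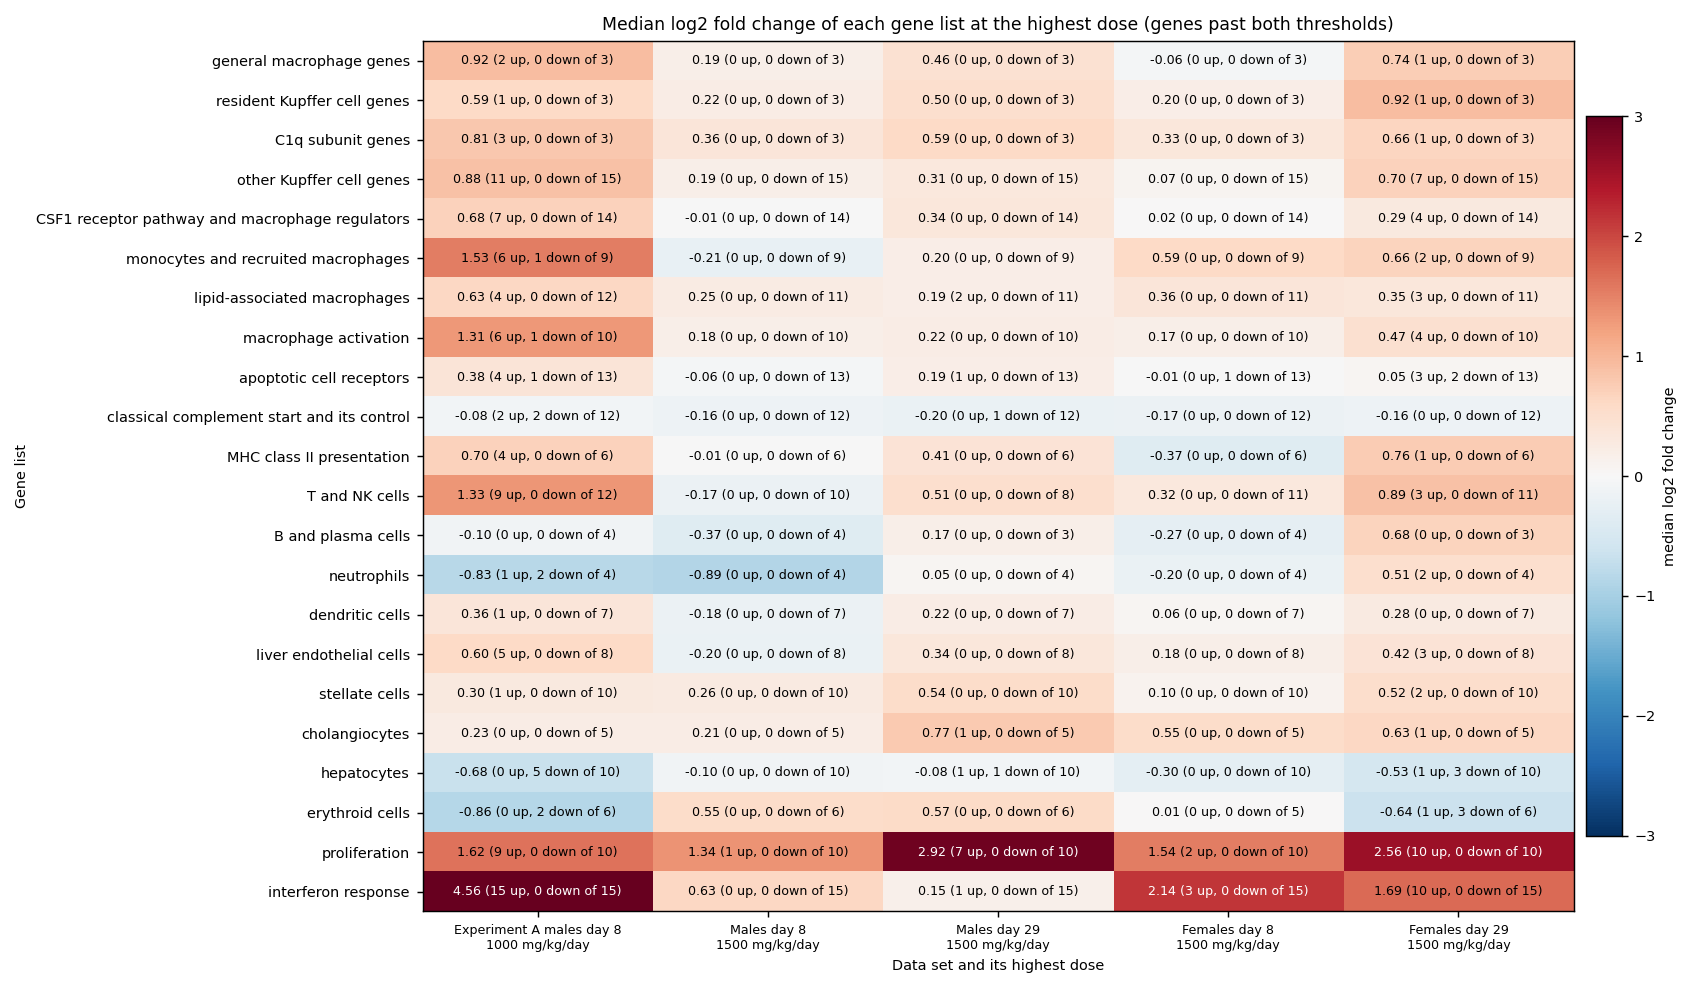
Median log2 fold change (color, capped at 3 on the scale, and number in each cell) of each gene list (vertical axis) at the highest dose of each data set (horizontal axis), with the genes called higher and lower of those tested. Other Kupffer cell genes stand at 11 of 15 in experiment A and 7 of 15 in females of day 29, and hepatocyte genes at 5 and 3 of 10 lower.

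Markers of other cell types were counted in the same comparisons. At 1000 mkd of experiment A, 14% of all genes were called higher and 7.45% lower. In experiment A at 1000 mkd, 9 of 12 T and NK cell genes rose (Cd3e 2.19, Cd2 2.03, Cd3d 2.00), and their summed level over 13 genes ranged from 27.3 to 34.3 CPM in controls and from 47.4 to 84.1 CPM at 1000 mkd. Of 8 liver endothelial genes 5 rose (Cdh5 1.82, Lyve1 0.96, Oit3 0.70), with sums of 94.7 to 197 against 168 to 312 CPM. Hepatocyte genes fell in 5 of 10 cases (Ttr by 0.98, Alb by 0.91, Apob by 0.88), with sums of 256447 to 341203 against 77860 to 249288 CPM. Neutrophil genes gave 1 higher and 2 lower of 4, with S100a8 at -1.82 and S100a9 at -1.74, and their sum over 10 genes was 3.12 to 10.6 CPM in controls and 1.74 to 2.74 CPM at 1000 mkd. Dendritic cell genes gave 1 of 7 (Ccr7 0.92), stellate cell genes 1 of 10 (Pdgfrb 0.70), cholangiocyte genes 0 of 5, and B and plasma cell genes 0 of 4. These counts lie near or below the share of all genes called higher. Of 6 erythroid genes 2 fell (Alas2 by 2.39, Hbb by 2.30). When replicate 2 of the 1000 mkd group was left out, 7 of 12 T and NK cell genes and 2 of 8 endothelial genes rose. Dendritic and stellate cell genes then gave 0 of 7 and 0 of 10, and hepatocyte genes again fell in 5 of 10 cases. Neutrophil genes gave 1 higher and 1 lower of 4, and 3 of 6 erythroid genes fell. In that fit 10.5% of all genes were called higher and 4.05% lower. The part of these lists in the macrophage results was not tested.

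In females of day 29 at 1500 mkd, T and NK cell genes rose in 3 of 11 cases, 1 of them Cd4, which rat macrophages also express (sums of 24.1 to 53.1 CPM in controls and 44.0 to 81.4 CPM at 1500 mkd), endothelial genes in 3 of 8 (116 to 375 against 271 to 439 CPM), stellate cell genes in 2 of 10 and neutrophil genes in 2 of 4. The neutrophil sum over 10 genes was low and overlapped, at 1.76 to 6.49 CPM in controls and 1.28 to 7.94 CPM at 1500 mkd. B and plasma cell genes were called in 0 of 3 cases and dendritic cell genes in 0 of 7, and 1 of 5 cholangiocyte genes rose (Sox9 0.63). Of all genes, 9.55% were called higher and 3.54% lower in this comparison. Hepatocyte genes gave 1 higher (Apoa1 0.92) and 3 lower of 10 (Alb by 0.98), with sums of 201339 to 388113 against 94388 to 199146 CPM, and erythroid genes 1 higher and 3 lower of 6. In males of day 29 1 cholangiocyte gene (Cftr) rose, and of 10 hepatocyte genes 1 rose (Cyp2e1 0.73) and 1 fell (Apob by 0.70). Without replicate 3 of the 1500 mkd males, 0 of 5 cholangiocyte genes rose. When replicate 2 of the 1500 mkd females was left out, 1 of 11 T and NK cell genes, 1 of 8 endothelial genes and 1 of 10 stellate cell genes rose. Neutrophil genes gave 0 of 4 and cholangiocyte genes 0 of 5. Of 10 hepatocyte genes 1 rose and 1 fell, and of 6 erythroid genes 0 rose and 2 fell. In that fit 5.57% of all genes were called higher and 1.42% lower, and the counts of 1 rest on single genes. Whether these lists had a part in the macrophage results was not tested.

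Proliferation and interferon genes were counted beside them. Of 10 proliferation genes 9 rose in experiment A, 1 in males and 2 in females of day 8, 7 in males and 10 in females of day 29, and the 7 in males were 3 without replicate 3 of the 1500 mkd group. Of 15 interferon response genes all 15 rose in experiment A (Rsad2 by 6.82), 0 in males of day 8, 3 in females of day 8, 1 in males and 10 in females of day 29. Without replicate 2 of the 1000 mkd group of experiment A, 12 of 15 interferon and 8 of 10 proliferation genes rose. Without replicate 2 of the 1500 mkd females of day 29, both counts stayed at 10. In females of day 8 Rsad2 was higher by 4.28 at 1500 mkd, where 0 of 9 macrophage members were called. Its values there ran from 4.75 to 321 CPM, against 3.79 to 9.01 CPM in controls, so the groups overlapped. The part of interferon and proliferation genes in the macrophage results was not tested. Over replicates 1 to 5 of the 1000 mkd group of experiment A, Rsad2 was 25.8, 874, 31.7, 959.8 and 154 CPM, and all 5 values lay above the controls (2.32 to 5.63 CPM).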

How the data were processed

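RNA of the left lobe of the liver was sequenced as single-end reads of stranded mRNA libraries. The authors trimmed the reads (Trimmomatic), aligned them with Bowtie2 to the rat genome (Rn6) and counted them on genes with HTSeq. They deposited raw counts, with no normalization, in 5 tables. The strand setting of the counting is not given in the sources used here, so reads of overlapping antisense genes may be included. HTSeq summary lines, 35.5 to 67.1% of the counts of a rat in experiment B, were left out of library sizes. The per-sample columns not used number 0. Reads on genes per rat were 15449716 to 39986531.

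Counts were fitted with edgeR 4.0.16 (R 4.3.3, glmQLFit and glmQLFTest) after TMM normalization and its filter on low counts, with 1 fit per data set that held all its dose groups. P-values were adjusted over all genes tested. Dose trends used dose as a linear term. Differences of response and control levels used a fit of all 29 groups. The steps were tested on simulated data. Replicates were separate rats. Replicate numbers follow the titles in experiment B. In experiment A they number the rats of a group in order, since the titles skip numbers in 3 groups (100, 300 and 1000 mkd, 13 rats), and there they only name a rat.

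The members and gene lists were chosen with earlier results of these data known. All members are named. Of each other list, at most the 3 called genes with the largest |log2 fold change| per data set are named, and for likeness the nearest of the 5 genes with the highest Spearman correlation (prior count 2). Exceptions are genes named where single results turn on them (Gas6, Mfge8, Cyp2e1, Apob, F10, Arg1, Cd4 and Mki67), chosen after their values were seen. The Cd68 to Clec4f and C1qb to C1qa ratios were chosen after their values were seen. Alternatives were DESeq2 1.42.0, its size factors, other filters, no fold limit, dose ranks, smaller fits, the replicate block (also by the title numbers in experiment A, added after seeing the data) and leaving out rats (for the gene lists, and for the difference between the experiments, also added after seeing the data). Promoter sequences came from RefSeq (GRCr8), which is not the build of the counts.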

Additional observations from a re-analysis of the deposited data

Results flagged for a closer look

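Of 261 groups of 5 rats (9 genes in 29 groups), 13 (4.98%) had an extreme rat whose gap to its nearest neighbor exceeded 0.71 of the range of the group. For independent groups of normally distributed values, chance gives about 1 in 20. The 9 genes were measured in the same rats and varied together, so that share does not hold as such here. In each of them the extreme rat was the highest. Replicate 5 of the 300 mkd group of experiment A was set apart for 4 genes, with Csf1r at 132.8, Clec4f at 566, C1qa at 276.1 and C1qc at 264.6 CPM, while the next rats were at 74, 241.8, 150.9 and 137.3 CPM. Replicate 2 of the 1000 mkd males of day 8 was set apart for C1qb (166.6 CPM) and C1qc (214.1 CPM). Control replicate 4 of the females of day 8 was set apart for Adgre1 (71.55 CPM), Marco (143.2 CPM) and C1qa (207.7 CPM). Single genes were set apart in the 300 mkd males of day 8 (Cd163, 84.79 CPM, replicate 5), the 1500 mkd males of day 29 (Clec4f, 403 CPM, replicate 1), the 300 mkd females of day 8 (Csf1r, 193.2 CPM, replicate 2) and the 750 mkd females of day 29 (Marco, 61.53 CPM, replicate 1).

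The response to 1000 mkd in males of day 8 differed between the experiments by the interaction test of edgeR, for Cd68 by 1.501 (log2, experiment A minus experiment B, adjusted p = 0.0163) and for C1qb by 1.04 (adjusted p = 0.0453). Neither gene passed that test when the fit held only the groups of the contrast (adjusted p = 0.0623 and 0.112). Without replicate 2 of the 1000 mkd group of experiment A, C1qb did not pass (adjusted p = 0.0741) and Cd68 stood at the limit (adjusted p = 0.05).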

How the results depend on the processing

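No result reversed. Among the 24 dose comparisons, the count of called members moved in 2 outside the fits that leave out a rat. Males of day 29 at 1000 mkd had 0 called members, and 1 with the replicate block, 4 when the fit held no dose group but the tested one beside the control, and 1 with the Wald test of DESeq2, and females of day 29 at 1500 mkd had 3, and 1 (C1qb) in such a fit. The trend count of experiment A (8) was 0 and that of females of day 29 (7) was 2 without the highest dose, and that of males of day 29 (5) was 8 with dose ranks. The difference between the experiments (2 members) gave 0 with only its 4 groups in the fit, 4 with the replicate block in that fit (where the numbers of experiment A only name rats) and 0 with a block by the numbers in the titles, both chosen after seeing the data. In experiment A the block by the numbers in the titles called 5 members at 1000 mkd (C1qa was lost, adjusted p = 0.0653) and 8 in the trend. The cause of these shifts was not tested, beside the smaller number of groups. Leaving out 1 rat gave 4 to 7 members at 1000 mkd of experiment A (6), 2 to 6 at 1500 mkd in females of day 29 (3), and for the trends 8 to 8 in experiment A, 2 to 8 in males and 5 to 9 in females of day 29. It gave 0 to 5 for the difference between the experiments, where 5 came without replicate 2 of the 1000 mkd males of day 8, and 3 to 4 for the control females against males of day 29, in fits of their own groups, or of all groups without replicate 2 of the 1000 mkd rats of experiment A (1), chosen after seeing the data. Every other comparison kept 0 in these fits. In all, 439 of 476 recomputed counts stayed within 1.5 times, and 475 of 569 values of single genes kept their call. Many of these counts were 0 in both fits, since 22 of the 24 dose comparisons had 0 called members. Marco lost its trend in males of day 29 without a filter on low counts (adjusted p = 0.063) and with the replicate block (0.107), and Clec4f its trend in experiment A with dose ranks (0.126). Rats with the same number did not deviate together (median correlations -0.0355 to 0.0203 in experiment B and -1e-04 by the title numbers in experiment A), so the block pairs numbers only. With 5 rats per group, the upper limits of the 95% intervals reach 0.98 (log2) at 1500 mkd on day 8 of experiment B. The interval of Marco in males of day 8 reaches further than that on the lower side.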

Other observations

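Ratios between members within a rat were compared at the highest dose after their values had been seen. The ratio of Cd68 to Clec4f was higher by 0.90 (log2) at 1000 mkd in experiment A, with 3 of 5 rats above all controls (exact permutation test, two-sided, p = 0.0238, adjusted over 10 tests 0.132), and by 0.76 at 1500 mkd in females of day 29, with 4 of 5 rats above all controls (exact permutation test, p = 0.0397, adjusted 0.132). In the other 3 data sets the differences were 0.01 to 0.19. The ratio of C1qb to C1qa was higher by 0.34 (3 of 5 rats, exact permutation p = 0.0397, adjusted 0.132) and by 0.39 (3 of 5 rats, p = 0.0556, adjusted 0.139) in the same comparisons, and differed by -0.03 to 0.13 elsewhere. None of the 10 ratios passed after adjustment, and the smallest p this design allows is 0.00794. The adjustment does not cover the choice of these ratios among the 36 pairs of members, so these p-values are too low and only describe the data.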
